A study of Homo sapiens with 6 samples.

Results

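The 10 genes described here encode enzymes that make serine, asparagine, proline and cysteine or that carry serine carbon into mitochondrial folate: ASNS, PHGDH, PSAT1, PSPH, SHMT2, MTHFD2, ALDH1L2, ALDH18A1, PYCR1 and CTH. They were chosen, with earlier results of these data known, as a list of symbols matched to Ensembl identifiers. All 10 were found among the 63241 genes listed. Expression was measured by RNA-seq in MDA-MB-231 (an established human line of basal-like mammary carcinoma, labelled as wild type) after 24 h with 5 μM nitidine chloride (NCD), a plant alkaloid, or with 0.1% DMSO as the vehicle. Each group had 3 libraries, and every library came from this single line, so the results hold for one cell background. For NCD replicates 2 and 3 the description text carries other line numbers, while the cell line field gives MDA-MB-231, which was used. The labels do not say whether the 3 libraries of a group came from separate cultures, and the p-values therefore measure the spread between libraries, which may be technical.

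Serine is built from the glycolytic intermediate 3-phosphoglycerate by PHGDH, PSAT1 and PSPH, which act in that order. In mitochondria SHMT2 moves a carbon from serine to tetrahydrofolate, and MTHFD2 and ALDH1L2 oxidise that carbon further, which feeds formate and NADPH supply. ASNS makes asparagine from aspartate and glutamine, ALDH18A1 and PYCR1 make proline from glutamate, and CTH releases cysteine from cystathionine in the last step of transsulfuration. Many of these genes are known targets of ATF4, the transcription factor of the amino acid response and of the integrated stress response. PHGDH is known to be low in MDA-MB-231 in comparison with breast cancer lines in which the gene is amplified.

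The libraries held from 18223594 to 21629653 counts. Vimentin, CD44, CAV1, AXL and MSN, which this line expresses, had group means from 213.0 to 3056 CPM (counts per 1e6 on scaled library sizes). The oestrogen and progesterone receptor genes ESR1 and PGR and the epithelial cadherin gene CDH1 had group means of at most 0.244 CPM. ERBB2 (means of 37.2 CPM with DMSO and 61.0 with NCD) and EPCAM (2.71 and 4.01 CPM) were measurable. The leukocyte marker PTPRC and the hepatocyte marker ALB had at most 2 counts in any library, and the endothelial marker PECAM1 had from 8 to 21. RNA was taken from whole cultures, so a change in the number of cells with a transcript and a change in transcript per cell cannot be told apart.

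With NCD, 9 of the 10 genes rose and ALDH18A1 fell, each with a Benjamini-Hochberg adjusted p below 0.05 from edgeR's quasi-likelihood test. In each of these 10 genes the values of the 2 groups did not overlap. Among all 15295 tested genes, 35.3% rose and 34.1% fell at this threshold, 37.2% had all NCD values above all DMSO values and 35.3% had them all below. With a fold threshold added (an absolute log2 fold change above 1), 8 members were called higher and 0 lower, against 13.5% of all tested genes called higher, 17.5% called lower and 31.0% called in either direction. The median log2 fold change of the 10 genes was 1.40, against 0.04 over all tested genes. Because the members were chosen with earlier results of these data known, these contrasts with all tested genes are descriptive only. ALDH1L2 passed the filter on low counts only through its NCD libraries and so had to differ, and without it 7 of 9 members were called higher. The gene spans of the members run from 5.6 to 95.8 kb in GENCODE release 29, and the 9773 tested genes with spans in this range had a median log2 fold change of 0.17. Of these 9773 genes 1460 were called higher and 641 lower, so calls of a fall were rarer among them than among all tested genes. Together the 10 genes took 0.0940% to 0.0987% of all counts in a DMSO library and 0.279% to 0.311% in an NCD library.

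**Figure D1:**
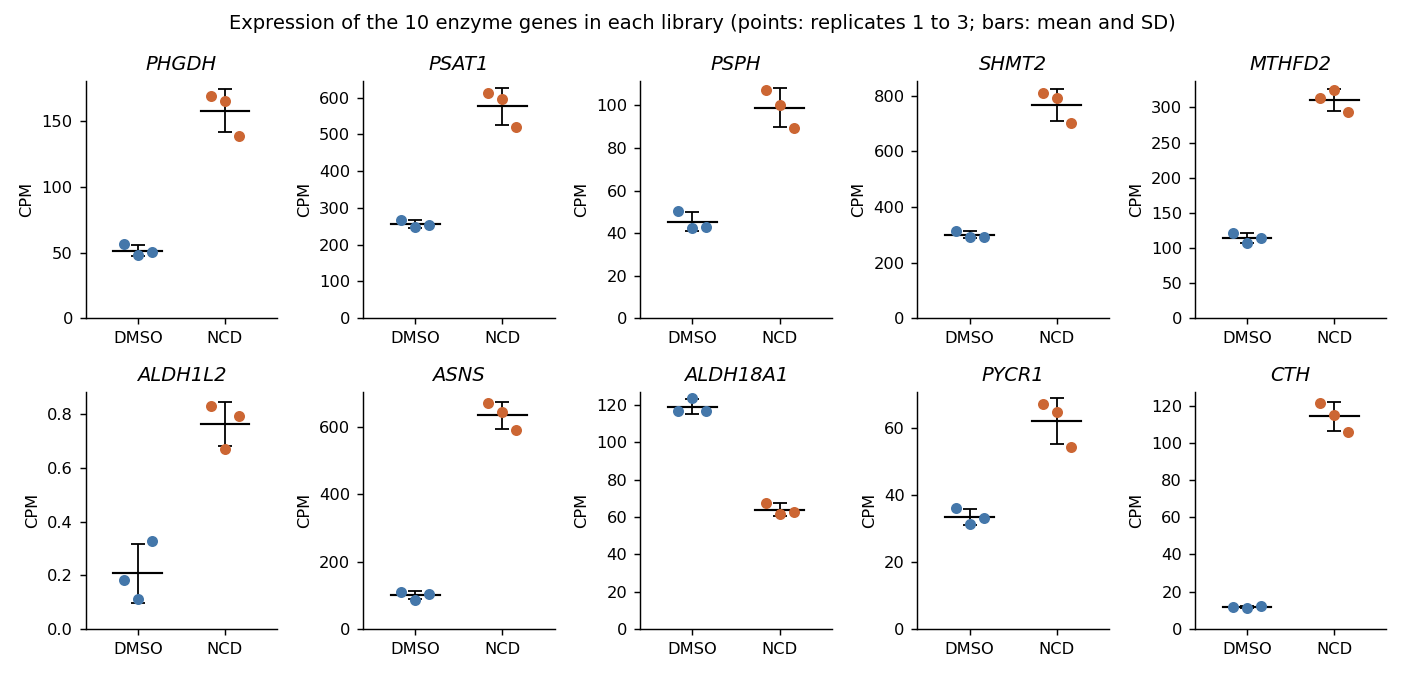
CPM (vertical axes, each from 0) of the 10 enzyme genes in the 3 DMSO libraries (blue) and the 3 NCD libraries (orange), with mean and SD as bars. The NCD points lie above the DMSO points in 9 panels and below them in the panel of ALDH18A1.

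**Figure D2:**
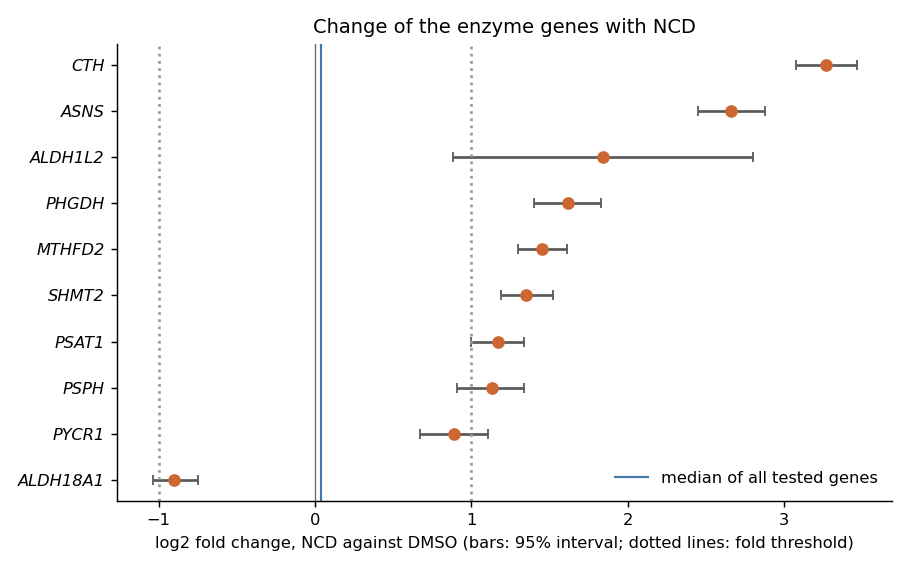
Log2 fold change of each enzyme gene, NCD against DMSO (horizontal axis), with its 95% interval. The points run from -0.90 for ALDH18A1 to 3.27 for CTH, and the interval of ALDH1L2, the gene with the fewest counts, is the widest.

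The 3 enzymes of serine synthesis rose together but not to the same extent. PHGDH (ENSG00000092621; chromosome 1, 119648411 to 119744226 on the plus strand of GRCh38), which commits 3-phosphoglycerate to serine, had 56.3, 47.8 and 50.5 CPM with DMSO and 169.1, 165.7 and 139.2 CPM with NCD. The rise came to 1.62 on the log2 scale (standard error 0.09, edgeR adjusted p = 6.95e-07), or 3.07-fold. PSAT1 (ENSG00000135069; chromosome 9, 78297143 to 78330093, plus strand), the transaminase of the next step, had 268.2, 247.4 and 253.9 CPM with DMSO and 612.4, 596.8 and 519.7 CPM with NCD. PSAT1 thus rose by 1.17 on the log2 scale (standard error 0.08, edgeR adjusted p = 1.33e-06). PSPH (ENSG00000146733; chromosome 7, 56011051 to 56051604, minus strand), the phosphatase that releases serine, went from 50.4, 42.5 and 43.0 CPM to 107.4, 100.2 and 89.2 CPM. Its log2 fold change of 1.13 (standard error 0.09, edgeR adjusted p = 6.85e-06) lay just above the fold threshold, with an interval from 0.91 to 1.34. In all 3 genes NCD replicate 1 was the highest and NCD replicate 3 the lowest of the treated libraries. The same order of extremes recurred across the list, since NCD replicate 1 was the highest treated library in 9 of 10 members and NCD replicate 3 the lowest in 8. In the DMSO group replicate 2 was the lowest library in 9 members.

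The ratio of 2 genes within a library does not depend on library scaling, and 7 such ratios were compared between the groups with an exact two-sided permutation test, for which 0.1 is the smallest p with 3 against 3 libraries. The log2 ratio of PSAT1 to PHGDH was 2.25, 2.37 and 2.33 with DMSO and 1.86, 1.85 and 1.90 with NCD, a difference (NCD minus DMSO) of -0.45 (exact p = 0.1, adjusted p = 0.117 over the 7 ratios). For PSPH to PHGDH it was -0.19 ± 0.04 with DMSO and -0.67 ± 0.05 with NCD (SD, n = 3), a difference of -0.49 (exact p = 0.1, adjusted p = 0.117). In both ratios the groups did not overlap, and the share of PHGDH in each pair was larger in every NCD library than in any DMSO library.

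Among the mitochondrial folate enzymes, SHMT2 and MTHFD2 rose past the fold threshold, while the paralog SHMT1 stayed below it and the paralog MTHFD2L fell. SHMT2 (ENSG00000182199; chromosome 12, 57229327 to 57234935, plus strand), the mitochondrial serine hydroxymethyltransferase, had 314.6, 293.3 and 293.3 CPM with DMSO and 809.1, 791.3 and 699.9 CPM with NCD. This amounted to 1.35 on the log2 scale (standard error 0.07, edgeR adjusted p = 4.42e-07). SHMT1, the cytosolic form, had 50.8 ± 2.71 CPM with DMSO and 57.9 ± 0.915 CPM with NCD (SD, n = 3), a log2 fold change of 0.19 (standard error 0.07, edgeR adjusted p = 0.0317). This small difference did not hold up under every setting, though its direction was the same in all 14 alternatives. Adjusted p was 0.0888 by DESeq2. With edgeR it was 0.0989 without the filter on low counts, 0.352 with ribosomal protein genes for scaling and 0.0602 with the replicate block. With 1 library left out, edgeR gave 0.0428 (without DMSO replicate 1) to 0.209 (without DMSO replicate 3). Adjusted p stayed below 0.05 with limma-voom (0.0271), and with edgeR on library totals (0.0005) or at least 10 counts in every library (0.0466). The log2 ratio of SHMT2 to SHMT1 was 2.55, 2.54 and 2.60 with DMSO and 3.79, 3.77 and 3.62 with NCD, a difference of 1.16 (exact permutation p = 0.1, adjusted p = 0.117). SHMT2 lies in a region where 2 genes on the opposite strand overlap it, and neither had more than 7.07 counts in any library.

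MTHFD2 (ENSG00000065911; chromosome 2, 74198562 to 74217565, plus strand), a mitochondrial methylenetetrahydrofolate dehydrogenase and cyclohydrolase, had 120.8, 106.8 and 113.5 CPM with DMSO and 313.4, 325.1 and 293.9 CPM with NCD. MTHFD2 thus rose by 1.45 on the log2 scale (standard error 0.07, edgeR adjusted p = 1.93e-07). Its paralog MTHFD2L, also mitochondrial, fell from 20.3 ± 0.944 to 9.52 ± 0.562 CPM (SD, n = 3; log2 fold change -1.09, standard error 0.09, edgeR adjusted p = 7.88e-06). The log2 ratio of the pair was 2.48 ± 0.04 with DMSO and 5.03 ± 0.14 with NCD (SD, n = 3), a difference of 2.54 (exact permutation p = 0.1, adjusted p = 0.117). Per kb of exon the transcript of MTHFD2 was 11.3 times that of MTHFD2L with DMSO and 65.8 times with NCD, and by the longest transcript in place of all exons 3.99 and 23.3 times. The 7 annotated pseudogenes of MTHFD2 had 0 counts in every library.

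ALDH1L2 (ENSG00000136010; chromosome 12, 105019784 to 105084577, minus strand), the mitochondrial 10-formyltetrahydrofolate dehydrogenase, was near the limit of detection. The DMSO libraries held 3, 2 and 6 of its counts and those with NCD 19, 13 and 17, or 0.181, 0.113 and 0.329 CPM against 0.830, 0.673 and 0.793 CPM. The groups did not overlap, and the log2 fold change was 1.84 (standard error 0.42, 95% interval 0.88 to 2.80, edgeR adjusted p = 0.00376). The gene passed the filter on low counts only through its NCD libraries and so had to differ. The p-value, the interval, the lack of overlap and the ratio to ALDH1L1 below are therefore no separate support for a rise. The gene C12orf45 overlaps it on the opposite strand and had 291 to 345 counts per library. Whether the counting used strand is not given in the sources used here, so reads of C12orf45 and ALDH1L2 cannot be told apart with certainty. C12orf45 itself had a log2 fold change of -0.32 (standard error 0.11, edgeR adjusted p = 0.0231). Whether its reads add to the counts of ALDH1L2 was not tested. Counts of the cytosolic paralog ALDH1L1 were 9, 11 and 17 under DMSO against 9, 4 and 27 under NCD, which overlap (log2 fold change -0.17, standard error 0.59, edgeR adjusted p = 0.814). The log2 ratio of ALDH1L2 to ALDH1L1 was -1.69 ± 0.44 with DMSO and 0.66 ± 1.17 with NCD (SD, n = 3; exact permutation p = 0.1, adjusted p = 0.117), with NCD replicate 3 at -0.65 and the 2 other treated libraries above 0.

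ASNS (ENSG00000070669; chromosome 7, 97852118 to 97872542, minus strand), the asparagine synthetase, had 109.2, 87.4 and 103.7 CPM with DMSO and 670.3, 643.9 and 590.3 CPM with NCD. Every NCD library was several times above every DMSO library. ASNS had a log2 fold change of 2.66 (standard error 0.09, 95% interval 2.45 to 2.88, edgeR adjusted p = 4.52e-08), a 6.34-fold rise that ranked 209 among all tested genes. A noncoding transcript annotated on the same strand overlaps ASNS and had 75 to 121 counts per DMSO library and 192 to 263 per NCD library, against at least 1545 for ASNS itself. The annotated pseudogenes of ASNS had at most 4 counts in any library.

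The proline branch split. ALDH18A1 (ENSG00000059573; chromosome 10, 95605929 to 95656706, minus strand), which turns glutamate into pyrroline-5-carboxylate, had 116.5, 123.9 and 116.9 CPM with DMSO and 67.6, 61.3 and 62.9 CPM with NCD. All NCD libraries were lower, with a log2 fold change of -0.90 (standard error 0.06, 95% interval -1.04 to -0.75, edgeR adjusted p = 2.28e-06), or 1.86-fold, just short of the fold threshold. PYCR1 (ENSG00000183010; chromosome 17, 81932384 to 81942412, minus strand), which reduces pyrroline-5-carboxylate to proline in mitochondria, had 36.0, 31.3 and 33.2 CPM with DMSO and 67.2, 64.6 and 54.3 CPM with NCD. It rose by a log2 fold change of 0.89 (standard error 0.10, 95% interval 0.67 to 1.11, edgeR adjusted p = 3.89e-05), also short of the fold threshold. Scaled by library totals, a setting that moves the median of all tested genes from 0.04 to 0.23, PYCR1 passed it with 1.09. The transcripts of ALDH18A1 and PYCR1 thus moved in opposite directions.

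PYCR3, a cytosolic paralog of PYCR1, fell from 7.16 ± 0.738 to 3.39 ± 0.657 CPM (SD, n = 3; log2 fold change -1.08, standard error 0.17, edgeR adjusted p = 0.000483). Without NCD replicate 3 the value of PYCR3 was -0.94, short of the fold threshold. The log2 ratio of PYCR1 to PYCR3 was 2.16, 2.21 and 2.30 with DMSO and 4.09, 4.17 and 4.34 with NCD, with no overlap and a difference of 1.98 (exact permutation p = 0.1, adjusted p = 0.117).

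**Figure D3:**
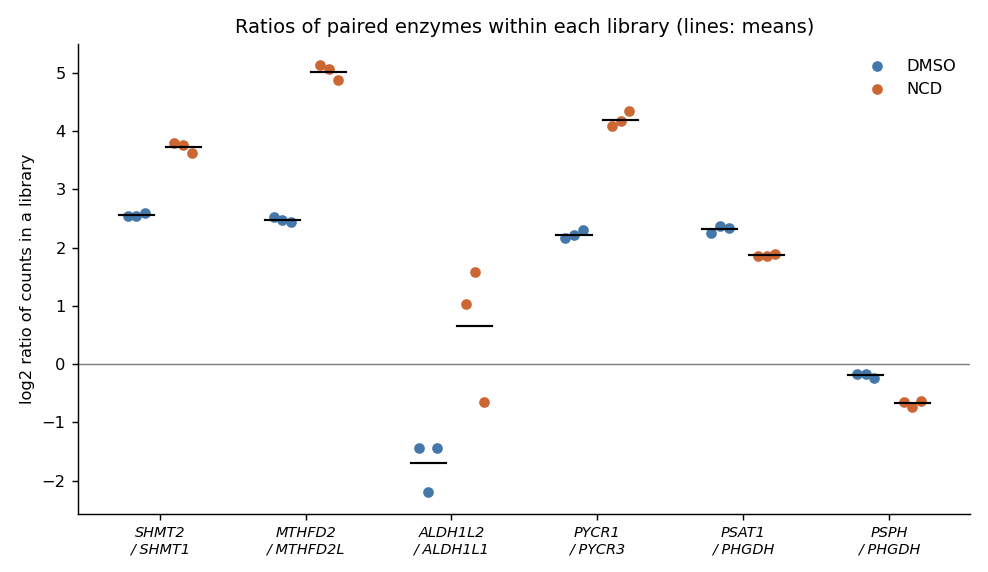
Log2 ratio of the counts of paired enzymes (vertical axis) in each DMSO library (blue) and each NCD library (orange), with group means as lines. The groups are apart in each of the 6 ratios shown, of which that of ALDH1L2 to ALDH1L1 rests on few counts.

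The largest rise was that of CTH (ENSG00000116761; chromosome 1, 70411218 to 70439851, plus strand), the cysteine-releasing enzyme. It had 11.9, 11.0 and 12.5 CPM with DMSO and 121.4, 115.1 and 106.0 CPM with NCD. Every NCD library was far above every DMSO library, and the spread within a group was small, with coefficients of variation of 6.23% with DMSO and 6.80% with NCD. CTH had a log2 fold change of 3.27 (standard error 0.09, 95% interval 3.08 to 3.47, edgeR adjusted p = 1.58e-08), a 9.67-fold rise that ranked 100 among the 15295 tested genes. Behind these values were 195 to 228 counts per DMSO library and 2225 to 2779 per NCD library. CBS, which encodes the enzyme before CTH in transsulfuration, had 1 count in NCD replicate 1 and 0 in the 5 other libraries, where 3 counts, the limit that a count of 0 allows, correspond to 0.152 to 0.165 counts per 1e6. A near-identical copy, CBSL, had 0 counts in every library, and reads that match both copies may be split or lost, so the level of CBS is uncertain. This limit covers counting error only.

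Promoter sequence of CTH and ASNS, with that of ALDH18A1, is shown because these genes had the largest rises and the only fall. RefSeq windows from 250 bases before to 50 bases after the start of transcription (GRCh38.p14) were found for 6 of the 10 members, namely ASNS (with windows for 2 start sites), PHGDH, PSAT1, MTHFD2, ALDH18A1 and CTH. They were searched on both strands for TGATGNAA, the core of the C/EBP-ATF element that ATF4 binds, for its stricter form TGATGCAA, and for CACGTG, the E-box bound by MYC and related factors. TGATGNAA was present in 1 of the 6 members, ASNS, and in 3.62% of 34943 windows of this length. It starts 68 bases before the ASNS start site at 97872408, on the strand of the gene, and is absent from the window of the other ASNS start site. TGATGCAA, which every TGATGNAA search also finds, was in none of the 6 members and in 0.870% of all windows. CACGTG was in 1 member, ALDH18A1, starting 136 bases before its start site, and in 7.23% of all windows. Among 49 other genes of these pathways with a window, TGATGNAA was in 2, GOT1 (log2 fold change 0.20) and MTHFD1L (-2.07). TGATGCAA was in the same 2 genes. CACGTG was in 5 of the 49, namely ASS1 (1.72), ODC1 (0.81), FPGS (-0.06), MTHFD1 (-0.97) and MTHFD1L (-2.07). Whether the motifs bear on the changes was not tested. Capitals mark the motif in the sequences. The ASNS stretch is at chr7:97872459-97872486 on the minus strand, the CTH stretch at chr1:70411018-70411217 on the plus strand and the ALDH18A1 stretch at chr10:95656712-95656961 on the minus strand.
ASNS: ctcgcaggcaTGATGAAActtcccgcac
CTH: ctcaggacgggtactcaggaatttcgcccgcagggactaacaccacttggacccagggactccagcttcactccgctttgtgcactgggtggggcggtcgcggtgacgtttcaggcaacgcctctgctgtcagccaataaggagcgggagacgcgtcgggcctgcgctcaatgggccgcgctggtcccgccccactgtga
ALDH18A1: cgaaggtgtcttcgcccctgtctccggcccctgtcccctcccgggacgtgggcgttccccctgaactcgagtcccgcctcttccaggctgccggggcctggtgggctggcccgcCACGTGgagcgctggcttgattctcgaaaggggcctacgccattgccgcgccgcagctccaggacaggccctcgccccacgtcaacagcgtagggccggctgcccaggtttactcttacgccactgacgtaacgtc
The CTH stretch of 200 bases was 64.5% G and C and the ALDH18A1 stretch of 250 bases 68.8%. Elements outside these windows, such as in introns, were not searched. The mRNA of ATF4 itself rose from 462.5 ± 27.9 to 705.2 ± 48.0 CPM (SD, n = 3), a log2 fold change of 0.61 (standard error 0.07, edgeR adjusted p = 7.44e-05), below the fold threshold.

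Levels of different genes were compared per kb of exon. With DMSO the order was PSAT1 (117.2 ± 4.88 CPM per kb, SD, n = 3), SHMT2 (62.1), ALDH18A1 (31.6), MTHFD2 (23.3), ASNS (22.5), PSPH (16.4), PYCR1 (11.6), PHGDH (5.59), CTH (4.89) and ALDH1L2 (0.0244). MTHFD2 and ASNS overlapped between libraries, and the other neighbours did not. PHGDH had the lowest level of the 3 serine synthesis enzymes by this length, and PSAT1 had 21.0 times its level per kb with DMSO and 15.4 times with NCD. By the longest transcript these ratios were 7.24 and 5.31. With NCD the mean of PHGDH (49.7 CPM per kb) then lay above that of PSPH (45.4), with library values that overlapped. With NCD, ASNS moved from place 5 to place 3 (142.5 ± 9.16 CPM per kb) and CTH from place 9 to place 5 (47.3 ± 3.22), while ALDH18A1 dropped from place 3 to place 9 (17.0 ± 0.874). In that group SHMT2 and ASNS overlapped, as did PHGDH and ALDH18A1. Among all tested genes CTH moved from percentile 54.1 to percentile 93.6 of level per kb and ASNS from 85.6 to 98.1. The order depends on the length used: by the longest transcript in place of all exons, ASNS took place 1 with NCD (269.4 CPM per kb) and place 3 with DMSO (42.5). That first place is not clear of PSAT1, which had 263.4 ± 22.7 CPM per kb with NCD (SD, n = 3). For PHGDH, whose GENCODE model starts well before the RefSeq start site at 119711934, that length raised the DMSO level from 5.59 to 16.2 CPM per kb and left it in place 8, and the NCD level from 17.1 to 49.7, which put it in place 6.

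**Figure D4:**
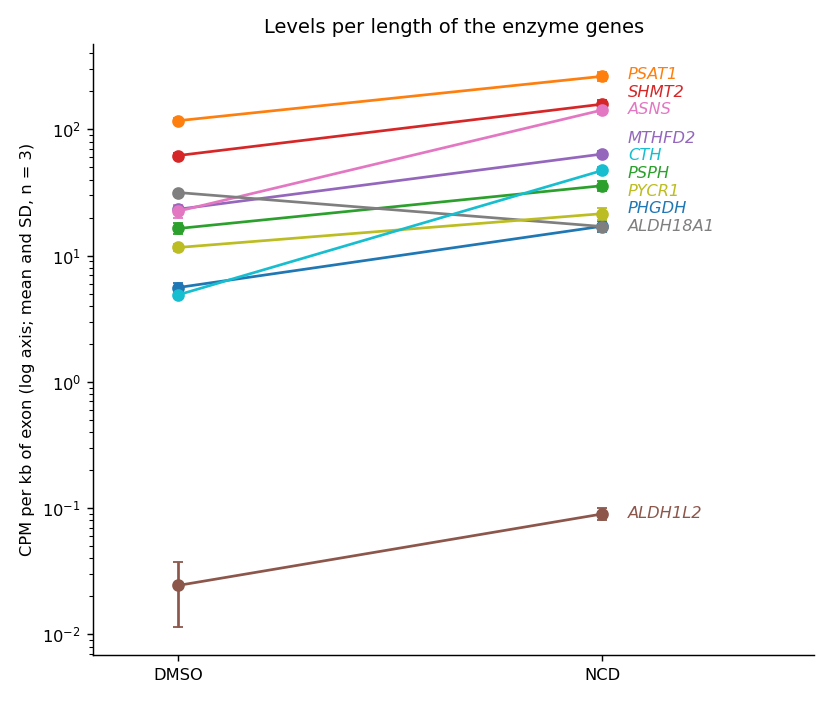
CPM per kb of exon (log axis; mean and SD of 3 libraries) of each enzyme gene with DMSO and with NCD. CTH and ASNS rise past other members, ALDH18A1 crosses downward, and ALDH1L2 lies far below the rest in both groups.

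The other genes of these pathways did not share one direction, and neither did all tested genes. Of 63 listed genes 47 could be tested, of which 6 were called higher and 5 lower. Among all 15295 tested genes 13.5% were called higher and 17.5% lower. At adjusted p below 0.05 without the fold threshold, 17 of the 47 rose and 21 fell, against 35.3% and 34.1% of all tested genes. The median log2 fold change of the 47 was -0.06, against 0.04 over all tested genes. The counts per list below stand beside the same shares. Scaled by library totals the called genes were 8 higher and 3 lower, with MTHFD2L at -0.90 and PYCR3 at -0.88 no longer called.

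In the list of serine, glycine and folate genes, 2 of 21 tested genes were called higher and 2 lower, and the median log2 fold change was -0.26. The largest fall was that of MTHFD1L, the mitochondrial enzyme that releases formate, from 72.1 ± 3.20 to 17.2 ± 1.38 CPM (SD, n = 3; log2 fold change -2.07, standard error 0.08, edgeR adjusted p = 8.21e-08). MTHFD2L was the other gene called lower. Called higher was MTFMT, which formylates the mitochondrial initiator tRNA (log2 fold change 1.05, standard error 0.11, edgeR adjusted p = 3.38e-05). MTFMT dropped to 0.95 without DMSO replicate 2 and then missed the fold threshold. Named after their values were seen, the cytosolic trifunctional enzyme MTHFD1 fell (log2 fold change -0.97), as did the mitochondrial serine carrier SFXN1 (-0.62) and the mitochondrial folate carrier SLC25A32 (-0.58), all with an adjusted p below 0.05 and short of the fold threshold. MTHFD1 passed it without NCD replicate 1, at -1.01. Along the mitochondrial folate route the transcripts of SHMT2 and MTHFD2 were therefore higher, and those of the carriers and of MTHFD1L lower.

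In the list of asparagine, aspartate and glutamate genes, 3 of 10 tested genes were called higher and 1 lower, with a median of -0.00. GLUL, the glutamine synthetase, rose from 74.8 ± 3.94 to 208.4 ± 6.80 CPM (SD, n = 3; log2 fold change 1.48, standard error 0.06, edgeR adjusted p = 1.01e-07). The others called higher were the mitochondrial alanine transaminase GPT2 (1.42, standard error 0.07, edgeR adjusted p = 1.8e-07) and ASS1, which uses aspartate to make argininosuccinate (1.72, standard error 0.11, edgeR adjusted p = 1.18e-06). ASL, the next enzyme after ASS1 and named after its value was seen, had a log2 fold change of -0.92 (standard error 0.12, edgeR adjusted p = 0.000146) and passed the fold threshold without DMSO replicate 2 (-1.02) or NCD replicate 1 (-1.04).

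In the proline and ornithine list, 0 of 7 tested genes were called higher and 1, PYCR3, lower, and the median was 0.48. OAT, which makes pyrroline-5-carboxylate from ornithine and thus enters the route after ALDH18A1, was named after its value was seen and rose by 0.48 (standard error 0.08, edgeR adjusted p = 0.000531). In the methionine and cysteine list, 1 of 9 tested genes was called higher and 1 lower, with a median of 0.15. CSAD, which takes cysteine products towards taurine, rose from 3.58 ± 0.709 to 11.6 ± 1.46 CPM (SD, n = 3; log2 fold change 1.70, standard error 0.17, edgeR adjusted p = 2.05e-05). MTR, the methionine synthase that links folate to methionine, fell from 59.2 ± 8.55 to 19.2 ± 3.54 CPM (SD, n = 3; log2 fold change -1.62, standard error 0.15, edgeR adjusted p = 1.03e-05). Gene span moved with these calls: MTHFD1L (236.3 kb), MTHFD2L (188.9 kb) and MTR (108.7 kb) are long genes and PYCR3 (5.9 kb) is not, while the 6 genes called higher span 10.5 to 56.3 kb. The part of span in these differences was not tested.

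**Figure D5:**
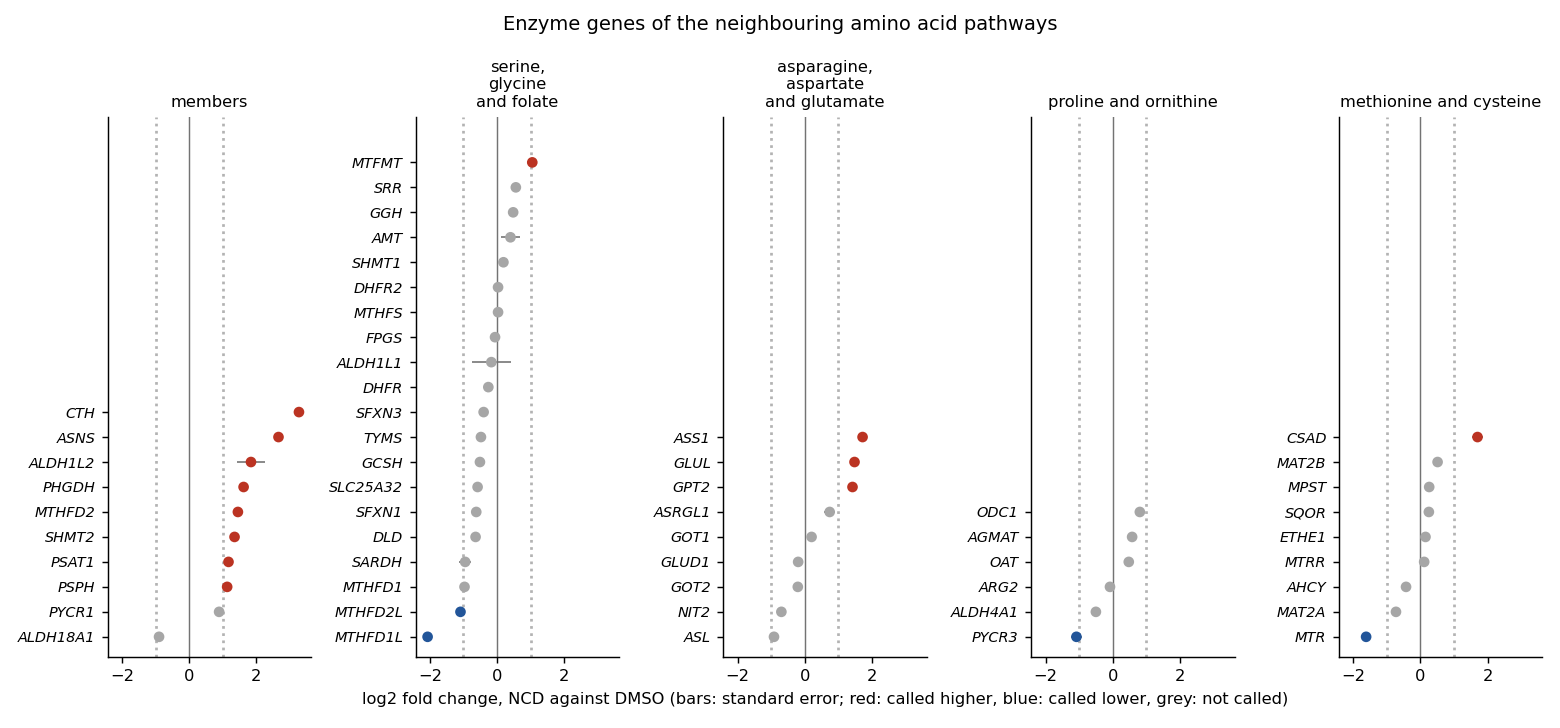
Log2 fold change, NCD against DMSO (horizontal axes), with standard errors, for the 10 members and for tested genes of 4 neighbouring pathway lists, coloured by call. The members lie to the right except ALDH18A1, while the 4 other lists spread to both sides, from -2.07 for MTHFD1L to 1.72 for ASS1.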

How the data were processed

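RNA-seq libraries of MDA-MB-231 cells, 3 exposed to 5 μM NCD and 3 to 0.1% DMSO over 24 h, were compared. The deposited values are expected counts per Ensembl gene, which the authors obtained with HISAT2 and RSEM and left without normalization. GRCh38 is named in the submitters' processing notes, and the annotation release and the strand setting are not given in the sources used here. In each library 25 lines with fragments of pathway text and no gene were skipped. Counts were rounded to whole numbers, filtered (filterByExpr) and scaled by TMM. The TMM factors differed between the groups, with 0.911 to 0.949 for DMSO and 1.059 to 1.092 for NCD. All 15295 tested genes entered glmQLFit and glmQLFTest of edgeR 4.0.16 (R 4.3.3), with Benjamini-Hochberg adjustment. Each standard error is the size of the log2 fold change over the root of F. CPM values use TMM-scaled library sizes. Exon lengths, spans and coordinates came from GENCODE release 29 (GRCh38), and promoter sequences from RefSeq (GRCh38.p14).

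The members and lists were chosen with earlier results of these data known. Named genes were the members, the partner enzymes of the ratios, ATF4, and in each pathway list with at least 1 CPM on average up to 3 genes called higher and 3 called lower with the largest fold change. Of these, 3 genes and 1 of the 7 ratios are not reported here. Log2 ratios used a pseudocount of 0.5. No pair of libraries within a group agreed within sampling noise (chi-square per degree of freedom at least 2.05). The test was checked on simulated counts in which few genes changed, equally often up and down and by more than the fold threshold. That check does not cover changes near the threshold or a shift of many genes, as in these data. Alternatives were DESeq2 1.42.0, limma-voom (limma 3.58.1), no filter, a minimum of 10 counts per library, library totals or ribosomal protein genes for scaling, a prior count of 2, calls by adjusted p alone, blocking on the replicate number, and omission of each single library. Depth was 18223594 to 21629653 counts per library, so that 3 counts correspond to at most 0.165 counts per 1e6.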

Additional observations from a re-analysis of the deposited data

How the results depend on the processing

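The 10 members kept their direction under every alternative that gave a value, and in 138 of 139 comparisons with an alternative their result counted as unchanged. Unchanged meant the same call or, for the prior count of 2, which gives no call, a log2 fold change moved by less than its standard error. The exception was PYCR1, called higher (1.09) when libraries were scaled by their totals. ALDH1L2 could not be tested with at least 10 counts in every library, which left 7 members called higher, and library totals gave 9. Without a fold threshold 9 members counted as higher and 1 as lower, 17 other pathway genes as higher and 21 as lower, and 10602 of all tested genes, by construction. Library totals gave 3 other pathway genes called lower. Over all tested genes, 2067 were called higher and 2669 lower, and with library totals 2793 and 2181, a share called higher of 43.6% and 56.2%. Without each library in turn, the count over all tested genes ranged from 4653 to 5049, that of other pathway genes called higher from 5 to 7 and lower from 5 to 7, and the members called higher stayed at 8. The 7 enzyme ratios kept their direction under all 8 alternatives run on them, most of which could not have changed it. Blocking on the replicate number leaves the mean difference of a ratio the same by construction. Where the groups did not overlap, omission of 1 library cannot reverse the direction. For those ratios only a pseudocount of 2 could have done so. The stricter motif TGATGCAA was in 0 member promoters. ALDH1L1, with few counts and no call, changed sign to 0.03 with library totals, 0.07 without DMSO replicate 3 or NCD replicate 1 and 0.22 without NCD replicate 2, and was at -1.20 without NCD replicate 3; the cause was not tested. Deviations of libraries with the same replicate number correlated at 0.314, -0.27 and 0.025, and 3 of 6 libraries correlated best with their own number. With 3 libraries per group this check cannot decide whether the numbers mark pairs. With the replicate block 4723 genes were called, 8 members among them, and of the named genes SHMT1, short of the fold threshold throughout, lost its adjusted p below 0.05 (0.0602).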
